A study of Mus musculus with 21 samples.

Results

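The interferon response and antigen presentation genes described here are 34 mouse genes chosen by name, from sensors of foreign RNA and the regulators of the response to its antiviral effectors, chemokines and the machinery that loads peptides on class I molecules. The list was chosen with earlier results of these data known, so its shares set against all genes are descriptive. Of the 34 symbols, 33 occur among the 28541 gene models of the count tables, each as a single model, and Igtp was not matched by symbol and is not analysed here. The counts came from 21 libraries of whole tissue. Brown adipose tissue (BAT), the thermogenic fat depot, gave 6 libraries of BATI4KO mice and 5 of floxed littermates, and white vastus (WV), the pale portion of a thigh muscle, gave 5 libraries of each genotype. From knowledge of the study, and not from its labels, BATI4KO mice lose the transcription factor Irf4 through a Cre under the Ucp1 promoter, which acts in brown adipocytes, and the floxed littermates carry loxP-flanked Irf4 without Cre. Both genotypes so share the floxed allele, and by this design cells that do not use the Ucp1 promoter keep the gene. The question is what the loss of Irf4 in brown fat changes in that fat and in a muscle away from it. Age, sex and housing temperature were not given in the sources used here.

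Cells that detect viral RNA or other danger signals release interferons, which bind receptors on the same and on neighbouring cells and act through JAK kinases and STAT transcription factors. Type I interferons act through Stat2 and Irf9, in a complex that binds a DNA element called ISRE, and interferon gamma acts through a shorter element called GAS. The target genes restrict viruses, attract lymphocytes and raise peptide display by class I molecules, which are heavy chains such as H2-K1 and H2-D1 paired with B2m and loaded with peptides that the transporter Tap1 and Tap2 brings into the endoplasmic reticulum. Irf4 itself belongs to the interferon regulatory factor family and is known from lymphocytes, macrophages and adipocytes.

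The promoters below are shown because these genes carry the differences described later or stand against them. They are RefSeq sequences of build GRCm38.p6, on the strand of each gene and read 5′ to 3′, and the capitals mark matches to the ISRE letters GAAANNGAAA or their reverse complement TTTCNNTTTC, where overlapping matches run together. Cxcl10 had the highest genotype difference of the 33 genes in BAT and Tap1 the next, and Irgm1 was among the few genes not higher in BAT than in WV. A single floxed library stood out within its group for Gbp2 and Ifit3 in WV and for Isg15 in BAT. The stretches lie at chr5:92348960-92349119 (minus strand) for Cxcl10, chr17:34187396-34187555 (plus) for Tap1, chr3:142620503-142620662 (plus) for Gbp2, chr11:48871421-48871580 (minus) for Irgm1, chr4:156200819-156200978 (minus) for Isg15 and chr19:34583369-34583528 (plus) for Ifit3.
Cxcl10: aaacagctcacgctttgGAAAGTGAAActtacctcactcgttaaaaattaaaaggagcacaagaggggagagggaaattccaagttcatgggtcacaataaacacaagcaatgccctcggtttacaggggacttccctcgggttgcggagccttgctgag
Tap1: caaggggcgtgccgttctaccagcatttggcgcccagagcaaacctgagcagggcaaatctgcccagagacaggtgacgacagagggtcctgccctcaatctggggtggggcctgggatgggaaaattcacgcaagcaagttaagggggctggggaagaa
Gbp2: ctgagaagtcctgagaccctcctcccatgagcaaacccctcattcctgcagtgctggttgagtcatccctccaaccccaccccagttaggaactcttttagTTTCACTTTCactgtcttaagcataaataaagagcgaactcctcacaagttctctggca
Irgm1: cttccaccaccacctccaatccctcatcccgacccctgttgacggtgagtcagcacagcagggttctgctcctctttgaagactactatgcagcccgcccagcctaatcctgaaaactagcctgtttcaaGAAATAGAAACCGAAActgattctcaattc
Isg15: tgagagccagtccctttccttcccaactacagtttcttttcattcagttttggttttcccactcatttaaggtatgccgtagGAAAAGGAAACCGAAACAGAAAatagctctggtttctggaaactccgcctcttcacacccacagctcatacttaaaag
Ifit3: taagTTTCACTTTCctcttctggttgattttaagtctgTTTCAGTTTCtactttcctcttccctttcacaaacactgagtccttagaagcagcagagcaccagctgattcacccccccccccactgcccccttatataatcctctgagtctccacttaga

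A promoter of 250 bases before to 50 after the start was held for 23 of the 33 genes, and for the other 10 (Dhx58, Zbp1, Nlrc5, Parp9, Parp14, Usp18, Mx1, Mx2, Iigp1 and Tap2) none was used. An ISRE match on either strand lay in 13 of the 23, which is 56.5%, against 3.99% of the 27025 genes with a promoter entry. Isg15 held 3 overlapping matches, Ifit3 held 2 separate ones and Irgm1 held 2 that overlap, while the Tap1 window held none of these letters. The GAS letters TTCNNNGAA, which read the same on both strands, lay in 3 of the 23 (Ifi35, Ifit2 and Bst2), which is 13.0%, against 9.55% of genes. A match describes the letters and is not a measured binding site.

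The libraries held 20219479 to 41773148 counts for BAT and 30479508 to 40328627 for WV, and levels are given as counts per 1e+06 counts (CPM), with TMM scaling, or as CPM per kilobase of gene model where genes are set against each other. The titles of 3 BATI4KO and 3 floxed libraries of BAT carry short numbers (1, 2 or 3), the other titles carry long tags as in KO_5494, and 4 long tags occur in both tissues; libraries are named here as in their titles, KO for BATI4KO and FX for floxed. Neither the meaning of these numbers nor whether each library is a separate animal is stated, so p-values measure the spread between libraries, which may be technical. Summed over 7 brown adipocyte markers, BAT libraries had 4100 to 8870 CPM in BATI4KO mice and 5190 to 13000 CPM in floxed mice, and 9 skeletal muscle markers summed to 170000 to 378000 CPM in WV. Irf4 had a lowest, median and highest value of 6.57, 7.22 and 8.10 CPM in BATI4KO BAT, against 28.0, 30.7, 59.8, 56.1 and 23.9 CPM in floxed BAT, a log2 difference of -2.45 (SE 0.24; edgeR adjusted p = 0.0026). In WV it had 2.21, 2.64, 2.64, 2.97 and 2.81 CPM in BATI4KO mice and 2.50, 4.26, 4.95, 3.62 and 3.16 CPM in floxed mice, a log2 difference of -0.48 (edgeR adjusted p = 0.489).

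In BAT, most of the interferon response genes had higher mean levels in BATI4KO than in floxed mice, by small amounts and unevenly between libraries. The log2 difference was above 0 for 31 of the 33 genes, against 48.8% of the 16051 genes tested, with a median of 0.34 over the 33 and of -0.01 over all genes. None of the 33 passed an adjusted p of 0.05 in edgeR's quasi-likelihood test, a test that called 7 genes in all, or 0.0436%. At an unadjusted p under 0.05, 8 of the 33 were higher (Tap2, Ddx58, Cxcl10, Tap1, Parp9, Parp14, Stat2 and Oasl2), which is 24.2% against 7.5% of all genes, and 0 were lower, against 7.24%. Since the genes were chosen with earlier results of these data known, these shares do not test the list against all genes. DESeq2 with the same design called 4 of the 33 higher, namely Tap2, Tap1, Cxcl10 and Ddx58, among 198 genes called higher (1.23%), and limma voom called 0 of the 33 among 8 genes. In whole tissue, fewer cells of a type and less RNA per cell cannot be told apart, and this holds for each difference below.

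**Figure D1:**
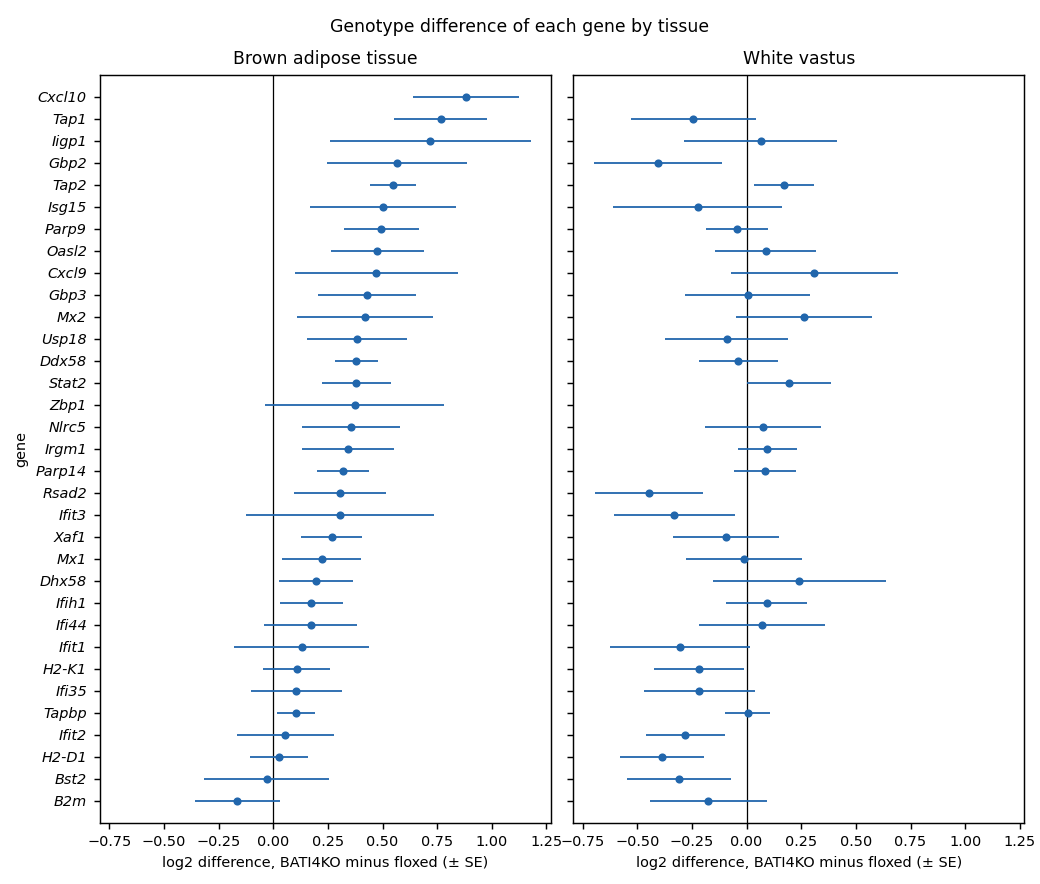
Each point is the log2 difference of a gene, BATI4KO minus floxed, in BAT (left) and WV (right), with the standard error of edgeR's quasi-likelihood fit as the bar. In BAT 31 of 33 points lie right of 0, with Cxcl10 at 0.88 and Tap1 at 0.77 on top and B2m at -0.16 at the bottom, and in WV 14 of 31 lie right of 0.

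Both subunits of the peptide transporter were among the genes with a small p. Tap2, which forms its peptide channel together with Tap1, had a lowest, median and highest level of 41.1, 50.02 and 66.9 CPM in BATI4KO BAT, against 31.7, 37.0, 34.1, 36.7 and 36.2 CPM in floxed BAT. Every BATI4KO library lay above every floxed library, which held for Tap2 alone among the 33 genes and for 0.573% of all genes tested; no gene of the 33 lay wholly lower, against 0.43% of all genes. Its log2 difference of 0.55 (SE 0.11) did not pass in edgeR (adjusted p = 0.1395) and did in DESeq2 (adjusted p = 0.00226). Tap1, the other subunit, had 22.1, 27.0 and 38.9 CPM as lowest, median and highest of BATI4KO BAT, against 16.4, 25.0, 20.5, 15.1 and 10.8 CPM in floxed BAT, and the groups overlapped only through FX_2. The log2 difference of Tap1 was 0.77 (SE 0.21; edgeR adjusted p = 0.1825, DESeq2 adjusted p = 0.0262).

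The other 4 genes of peptide display had differences closer to 0. Tapbp, which holds class I molecules at the transporter, had 107, 147 and 163 CPM as lowest, median and highest of BATI4KO BAT and 149, 140, 146, 127 and 113 CPM in floxed BAT, a log2 difference of 0.10 (SE 0.09; edgeR adjusted p = 0.6048). B2m, the invariant light chain, had 195, 267.5 and 370 CPM in BATI4KO BAT and 246, 358, 449, 278 and 253 CPM in floxed BAT. Its log2 difference of -0.16 was the lowest of the 33 (SE 0.19; edgeR adjusted p = 0.7236), and the highest level was in a floxed library. The heavy chain H2-K1 had 217, 347 and 425 CPM in BATI4KO BAT and 187, 280, 289, 364 and 343 CPM in floxed BAT, and H2-D1 had 256, 351 and 453 CPM, against 232, 323, 325, 405 and 383 CPM, with log2 differences of 0.11 and 0.02. Class I heavy chain genes are near-identical in sequence, so reads can be split between H2-K1 and H2-D1 or lost, and reads of Tap1 and Psmb9, whose exons overlap on opposite strands, cannot be assigned apart without strand, which is not given in the sources used here. The median of the 6 antigen presentation genes was 0.10 on the log2 scale.

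**Figure D2:**
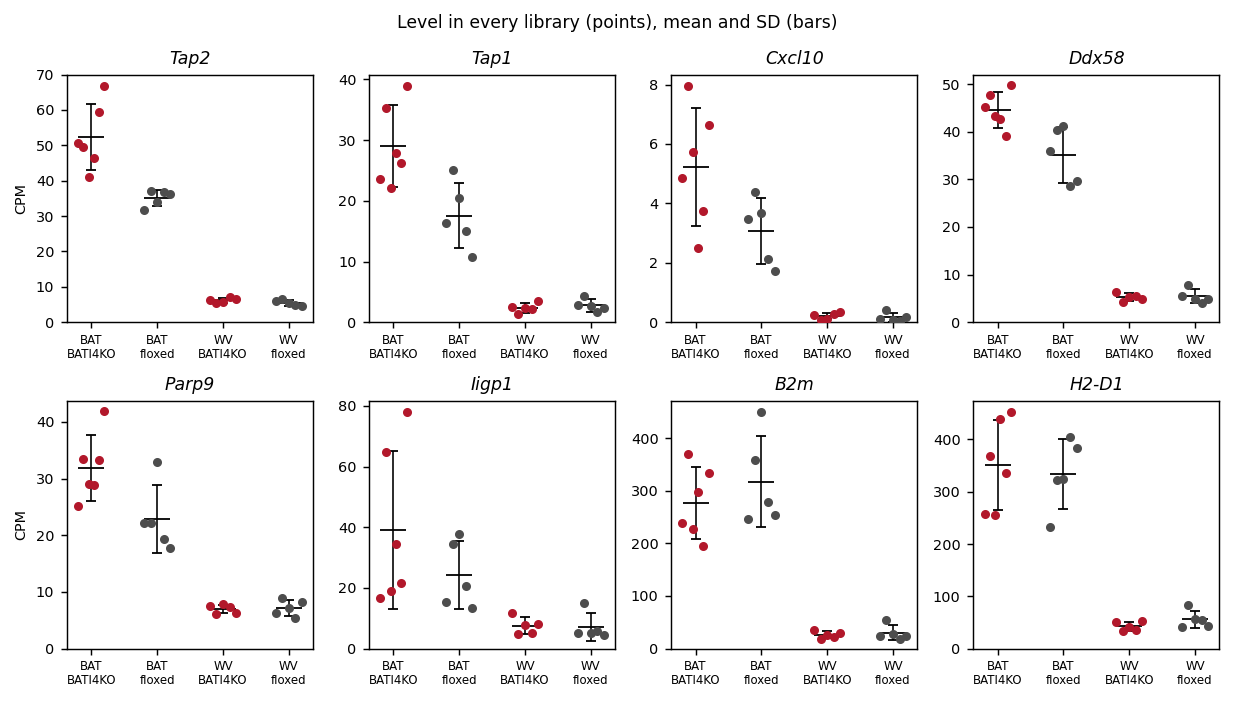
Points give the level (CPM) of 8 genes in every library, by tissue and genotype, and bars the mean and SD (n = 6 for BATI4KO BAT, n = 5 for the other groups). The BATI4KO points of Tap2 lie above the floxed points in BAT, from 41.1 CPM upward against 37.0 CPM at most, while those of B2m and H2-D1 overlap, and the WV means lie below the BAT means for each of the 8, with the tissues scaled separately.

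The chemokines Cxcl9 and Cxcl10 attract T cells that carry the receptor Cxcr3. Cxcl10 had a lowest, median and highest level of 2.49, 5.29 and 7.94 CPM in BATI4KO BAT, against 3.49, 4.37, 3.66, 2.12 and 1.72 CPM in floxed BAT. Of the 6 BATI4KO libraries, 2 lay within the floxed range, and the log2 difference of 0.88 was the highest of the 33 (SE 0.24; edgeR adjusted p = 0.1797, DESeq2 adjusted p = 0.0278). Cxcl9 had 5.61, 11.9 and 26.5 CPM in BATI4KO BAT and 7.5, 15.4, 17.1, 7.74 and 9.31 CPM in floxed BAT, a log2 difference of 0.47 with a large error (SE 0.37; edgeR adjusted p = 0.579). Its lowest and its highest value were both in BATI4KO libraries.

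Among the 4 sensors of nucleic acids, Ddx58, which encodes the RNA sensor RIG-I, had the smallest p. It had 39.1, 44.2 and 49.7 CPM as lowest, median and highest of BATI4KO BAT, against 35.9, 40.3, 41.1, 28.5 and 29.7 CPM in floxed BAT, and 5 of the 6 BATI4KO libraries lay above every floxed library. The log2 difference was 0.38 (SE 0.10; edgeR adjusted p = 0.1622, DESeq2 adjusted p = 0.0353). Ifih1, the sensor MDA5, had 21.3, 24.9 and 30.8 CPM in BATI4KO BAT and 19.4, 23.6, 31.3, 20.3 and 20.6 CPM in floxed BAT, a log2 difference of 0.17. Dhx58, the related sensor LGP2, differed by 0.20, and Zbp1, a sensor of Z-form nucleic acids that stayed at 0.676 to 2.47 CPM in BATI4KO BAT and 0.628 to 2.42 CPM in floxed BAT, differed by 0.37, and all 3 overlapped between genotypes.

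The 5 regulators of transcription and signalling differed by 0.11 to 0.49 on the log2 scale. Parp9, which acts with the ubiquitin ligase Dtx3l, had 25.1, 31.1 and 41.9 CPM as lowest, median and highest of BATI4KO BAT, against 22.2, 22.2, 33.0, 19.4 and 17.7 CPM in floxed BAT. Only FX_3 lay among the BATI4KO libraries, and the log2 difference was 0.49 (SE 0.17; edgeR adjusted p = 0.2199). The exons of Parp9 and Dtx3l overlap on opposite strands. Parp14, an ADP-ribosyltransferase, had 48.5, 51.5 and 64.5 CPM in BATI4KO BAT and 39.7, 53.9, 49.9, 36.2 and 37.1 CPM in floxed BAT, a log2 difference of 0.32 (SE 0.12; edgeR adjusted p = 0.2518). Stat2, a transcription factor of type I signalling, had 14.8, 21.95 and 28.0 CPM in BATI4KO BAT and 18.0, 21.9, 19.4, 12.2 and 14 CPM in floxed BAT, a log2 difference of 0.38 (SE 0.16; edgeR adjusted p = 0.2952). Nlrc5, the activator of class I genes, differed by 0.35 and Ifi35 by 0.11, with overlapping groups. All 6 BATI4KO libraries lay above the floxed mean for 5 of the 33 genes, namely Tap1, Tap2, Ddx58, Parp9 and Parp14, against 5.94% of all genes.

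The 10 antiviral effectors had a median log2 difference of 0.24, with 9 above 0. Oasl2, a ubiquitin-like relative of the oligoadenylate synthetases, had 3.61, 5.4 and 6.13 CPM as lowest, median and highest of BATI4KO BAT and 2.57, 4.28, 5.98, 2.66 and 3.80 CPM in floxed BAT, a log2 difference of 0.48 (SE 0.21; edgeR adjusted p = 0.3231). Bst2, which tethers budding virions, had 11.1, 14.5 and 29.5 CPM in BATI4KO BAT and 8.23, 17.9, 23.4, 14.5 and 18.0 CPM in floxed BAT, and was the other gene below 0, at -0.03 (SE 0.29). Rsad2, the antiviral enzyme viperin, had 23.5, 35.1 and 56.6 CPM, against 31.4, 39.6, 39.2, 22.2 and 20.6 CPM, a log2 difference of 0.31 (SE 0.21; edgeR adjusted p = 0.5227). The others differed by 0.05 (Ifit2) to 0.42 (Mx2), and the groups of each overlapped. Ifit1, Ifit2 and Ifit3, which bind viral RNA, differed by 0.13, 0.05 and 0.30, the GTPases Mx1 and Mx2 by 0.22 and 0.42, and Ifi44 and Xaf1 by 0.17 and 0.27. Of the ISG15 pair, the ubiquitin-like modifier Isg15 differed by 0.50 (SE 0.33) and its protease Usp18 by 0.38 (SE 0.23), at 0.946 to 2.61 CPM in BATI4KO BAT and 0.751 to 2.62 CPM in floxed BAT for Isg15.

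The interferon-inducible GTPases, which attack the membranes around intracellular pathogens, varied widely between libraries of one genotype. Iigp1 had 16.5, 28.0 and 77.9 CPM as lowest, median and highest of BATI4KO BAT, against 15.2, 34.5, 37.6, 20.5 and 13.5 CPM in floxed BAT. The 2 highest values, 77.9 and 64.7 CPM, were in KO_5494 and KO_2, and the other 4 lay within the floxed range, with a log2 difference of 0.72 (SE 0.46; edgeR adjusted p = 0.4879). Gbp2 had 23.7, 36.6 and 74.1 CPM in BATI4KO BAT and 19.3, 33.8, 41.6, 28.8 and 21.6 CPM in floxed BAT, a log2 difference of 0.57 (SE 0.32). Gbp3 had 12.9, 24.1 and 38.4 CPM in BATI4KO BAT and 10.8, 13.8, 20.5, 20.2 and 20.8 CPM in floxed BAT, a log2 difference of 0.43 (SE 0.22). Irgm1 differed by 0.34 (SE 0.21), and both Gbp2 and Irgm1 were highest in KO_5494 and next highest in KO_2. Reads of Gbp2 and Gbp3, as of the Ifit genes, can be split with their close relatives.

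The same libraries led across the 33 genes. KO_5494 held the highest level in BAT for 22 of the 33 genes, against 4.63% of all genes tested, KO_2 for 5 (6.04% of all), FX_3 for 4 (11.9%) and KO_5414 for 2 (10.2%). All 33 genes lay above the floxed mean in KO_5494 (50.3% of all genes) and in KO_2 (50.8%), and 31 did in FX_3 (49.9%). The mean deviation of the 33 genes from the floxed mean, on the log2 scale, was 0.801 in KO_5494, 0.631 in KO_2, 0.261 in KO_5414, 0.083 in KO_3, 0.011 in KO_5492 and -0.008 in KO_1. In floxed BAT it was 0.437 in FX_3, 0.168 in FX_2, -0.151 in FX_5497, -0.164 in FX_5503 and -0.289 in FX_1, which held the lowest level for 12 of the 33 genes (7.38% of all genes). Thus 4 of the 6 BATI4KO libraries lay within the floxed range, below FX_3.

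**Figure D3:**
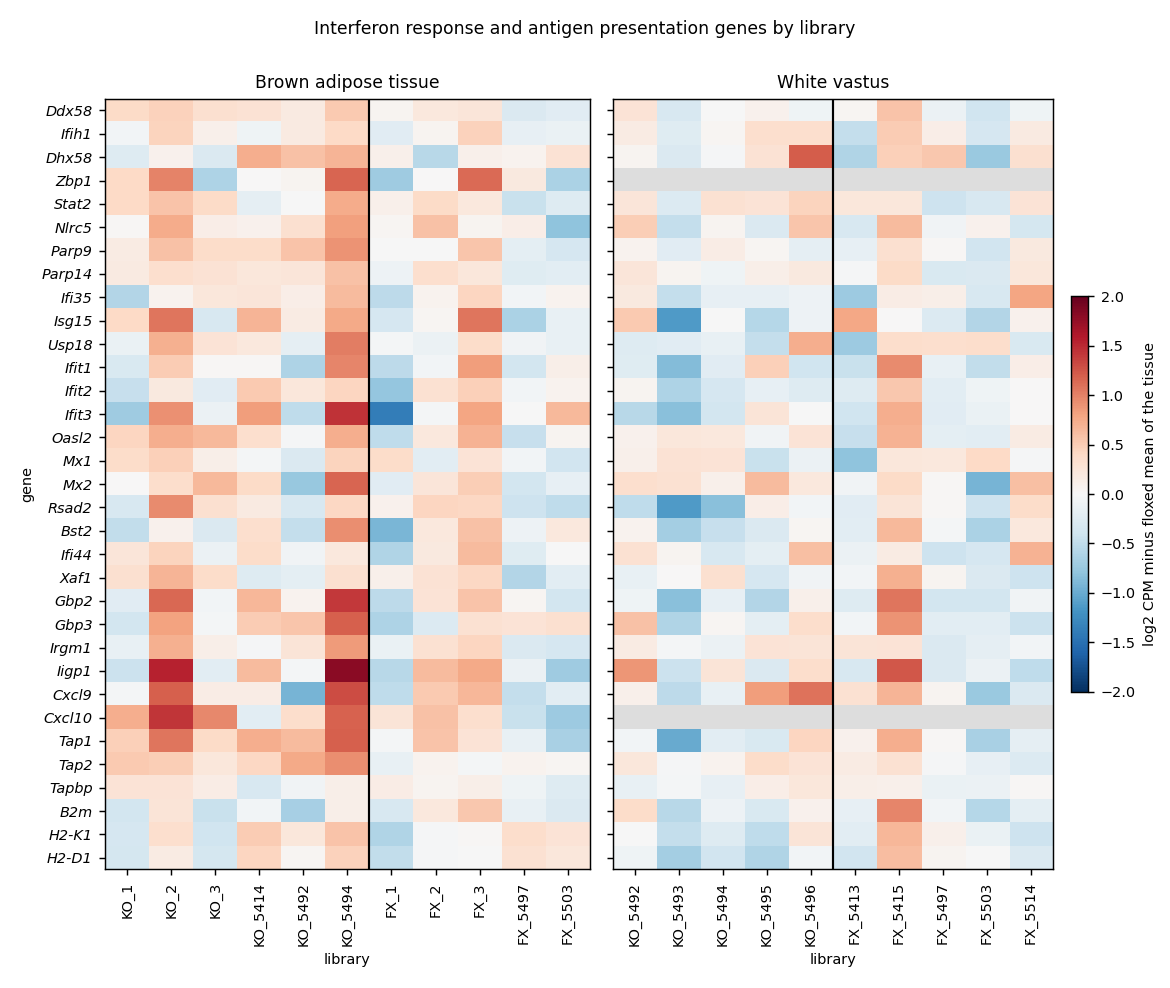
Each cell is the log2 CPM of a gene in a library minus the floxed mean of the tissue, for BAT (left) and WV (right), with red above and blue below; grey cells were not tested. The columns KO_2 and KO_5494 of BAT lie above 0 for all 33 genes, and the column FX_5415 of WV does for all 31, in pale shades where the deviation is small.

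The median in BAT depended on these libraries. The median of the 33 genes was 0.186 without KO_5494, 0.241 without KO_2 and 0.0792 without both, an alternative chosen after seeing the data, with 23 of the 33 then above 0. Without both, Tap2 still differed by 0.48, Tap1 by 0.57, Cxcl10 by 0.57, Parp9 by 0.38 and Ddx58 by 0.33 on the log2 scale, while Iigp1 was at -0.03 and Cxcl9 at -0.11. With the long-tag libraries of BAT alone the median was 0.58 and 33 genes lay above 0, and with the short-number libraries alone it was 0.147 and 27 lay above 0. Tap2 differed by 0.68 among long tags and by 0.46 among short numbers, Tap1 by 1.27 and 0.39, and Ddx58 by 0.61 and 0.22. The difference between the title styles in genotype effect was not tested.

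Markers of lymphocytes had higher means in BATI4KO BAT too, without passing the test. None of the 13 lymphocyte markers was at 0 in a BAT library. They summed to 24.6 to 86.7 CPM in BATI4KO BAT and 19 to 32 CPM in floxed BAT, ranges that overlap. The mean log2 deviation of the tested markers did not overlap, at 0.411 to 1.68 in BATI4KO BAT and -0.181 to 0.336 in floxed BAT. All 11 markers tested in BAT had a log2 difference above 0 with a median of 0.96, and none passed in edgeR. KO_5414 had the highest lymphocyte sum at 86.7 CPM, ahead of KO_2 at 39.8 and KO_5494 at 38.9 CPM. The mean deviation of the interferon genes in KO_5414, KO_2 and KO_5494 was 0.261, 0.631 and 0.801. The 9 macrophage markers summed to 105 to 144 CPM in BATI4KO BAT and 102 to 183 CPM in floxed BAT, highest in FX_3, with a median log2 difference of -0.18, and the 7 dendritic cell markers to 40.3 to 50.9 CPM and 35.6 to 48.1 CPM. Of 5 neutrophil markers, S100a8, S100a9 and Retnlg were at 0 in some BAT libraries. The part of these cells in the differences was not tested.

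Skeletal muscle transcripts had higher means in BATI4KO BAT as well, without passing the test. The 9 muscle markers summed to 700 to 20300 CPM in BATI4KO BAT and 164 to 1270 CPM in floxed BAT, ranges that overlap, with a median log2 difference of 2.69 and a lowest edgeR adjusted p of 0.154. KO_2, with all 33 interferon genes above the floxed mean, had the lowest muscle sum of its genotype at 700 CPM, and KO_3, with the highest at 20300 CPM, had a mean interferon deviation of 0.083. With a muscle score added as a covariate, the median of the 33 genes was 0.398 and 30 lay above 0. The muscle markers themselves had higher means in BATI4KO BAT, so this fit cannot separate muscle from genotype. The part of muscle transcripts in the differences was not tested.

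**Figure D4:**
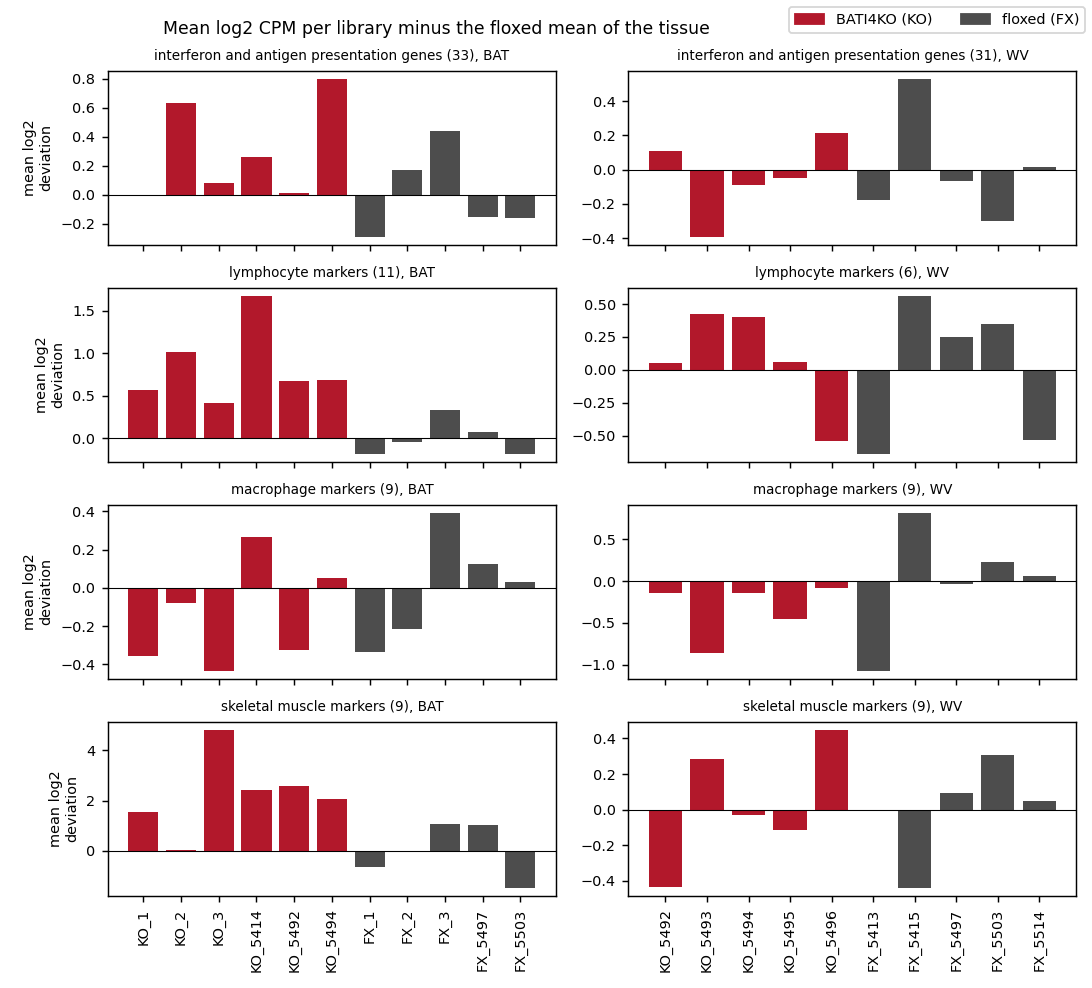
Bars give, for each library, the mean log2 CPM of a gene list minus the floxed mean of the tissue, for the interferon genes and for lymphocyte, macrophage and skeletal muscle markers in BAT (left) and WV (right); the number of genes is in each panel title. In BAT the interferon bars peak in KO_5494 (0.801) and KO_2 (0.631), the lymphocyte bars in KO_5414 (1.68) and the muscle bars in KO_3 (4.82), and in WV FX_5415 is highest for both interferon genes (0.532) and macrophage markers (0.819).

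In WV, a tissue away from the site of the deletion, the same genes had no common direction. Of the 33 genes, 31 were tested, since Zbp1 (2 to 14 counts per library) and Cxcl10 (1 to 17 counts) were under the expression filter. None of the 31 passed in edgeR, a test that called 1 gene in all (0.00688%), 0 had an unadjusted p under 0.05 in either direction (3.23% of all genes higher and 5.68% lower), and limma voom called none of the 31. DESeq2 called none of them either, with 0.2% of all genes called higher and 0.564% lower. The log2 difference was above 0 for 14 and below 0 for 17, against 48.5% of all genes above 0, and the median was -0.04, against -0.01 over all genes. The genotypes overlapped for each of the 31 genes, while 0.454% of all genes were wholly higher and 0.785% wholly lower in BATI4KO WV.

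The smallest p in WV belonged to H2-D1, with 50.9, 33.7, 41.4, 35.4 and 51.8 CPM in BATI4KO WV and 41.4, 83.0, 56.1, 53.7 and 44.0 CPM in floxed WV, a log2 difference of -0.39 (SE 0.19; edgeR adjusted p = 0.5979). Rsad2 had 2.90, 1.85, 2.28, 4.51 and 3.98 CPM in BATI4KO WV and 3.5, 4.94, 4.21, 3.07 and 5.34 CPM in floxed WV, and its log2 difference of -0.45 was the lowest (SE 0.25; edgeR adjusted p = 0.641). For H2-D1 3 of the 5 floxed libraries lay above every BATI4KO library, and the groups overlapped for both genes. Ifit2 differed by -0.28 (SE 0.18), Gbp2 by -0.41 (SE 0.29) and Bst2 by -0.31 (SE 0.24). Cxcl9 had the highest difference, 0.31 (SE 0.38), at 0.369 to 1.23 CPM in BATI4KO WV and 0.307 to 0.923 CPM in floxed WV, a level close to what 10 to 37 counts per library give. Tap1, Tap2 and Ddx58 were at -0.24, 0.17 and -0.04.

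The direction in WV depended on the floxed libraries. FX_5415 held the highest level for 19 of the 31 genes, against 17.7% of all genes, and lay above the floxed mean for all 31 (52% of all genes), with a mean deviation of 0.532. Gbp2 had 10.9 CPM in FX_5415 and 2.84 to 5.52 CPM in the other 9 WV libraries, and Iigp1 had 15.1 CPM there and 4.45 to 11.7 CPM in the others. Without this library the median was 0.107 and 20 of the 31 genes lay above 0. The 9 macrophage markers summed to 118 CPM in FX_5415, against 31.3 to 93.2 CPM in the other WV libraries. The 7 brown adipocyte markers, of which 5 were tested in WV, summed to 23.4 CPM in FX_5415, against 5.88 to 14.1 CPM in the others. The part of both lists in the level of FX_5415 was not tested. KO_5493 held the lowest level for 11 of the 31 genes, against 13.4% of all genes. KO_5494, the tag that led in BAT, had a mean deviation of -0.087 in WV.

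The small noncoding RNAs Rmrp and Rpph1 differed between WV libraries as well. They summed to 25 to 38.2 CPM in the BATI4KO libraries, against 35.7, 48.3, 380, 403 and 429 CPM in FX_5413, FX_5415, FX_5497, FX_5503 and FX_5514, and neither passed (edgeR adjusted p of 0.1746 for Rmrp and 0.1904 for Rpph1). The high sums thus occurred in 3 of the 5 floxed libraries and in no BATI4KO library of WV, where the fit had no covariate. An alternative chosen after seeing the data left out these 3 libraries, which leaves FX_5413 and FX_5415 as floxed. All 33 genes then passed the expression filter, their median was -0.338, 7 lay above 0 and none passed in edgeR. The part of these RNAs in the differences was not tested.

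The genotype effect in BAT minus that in WV was tested as the interaction of a fit over the 21 libraries. None of the 33 genes passed in edgeR, a test that called 3 genes (0.018%), and DESeq2 called none of the 33, with 0.204% of all genes called higher and 0.126% lower. At an unadjusted p under 0.05, 4 were higher, which is 12.1% against 5.58% of all genes, namely Tap1 with a difference of the log2 differences of 0.997 (SE 0.37; edgeR adjusted p = 0.3396), Parp9 with 0.52, Rsad2 with 0.73 and Tap2 with 0.36, and 0 were lower, against 5.04%. The interaction was above 0 for 31 of the 33, against 51.8% of all genes, with a median of 0.348, and without WV FX_5415 the median was 0.145 and 28 were above 0. Without WV FX_5497, FX_5503 and FX_5514 it was 0.534, 30 were above 0 and none passed. The effect of genotype in BAT is not shown to differ from that in WV for any of these genes.

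Between tissues the differences were large. The log2 differences between tissues are those of the fit at long-tag style, while the means cover floxed BAT libraries of both title styles. In floxed mice, 22 of the 33 genes were higher in BAT than in WV (edgeR adjusted p under 0.05), against 34.1% of all genes, and none were lower, against 31.7%. The median log2 difference was 1.24 over the 33 and 0.11 over all genes. Antigen presentation was higher throughout, with 6 of 6 genes passing and a median of 1.93. With both tissues scaled together, B2m averaged 272 CPM per kilobase in floxed BAT and 48.0 in floxed WV, the highest per length of the 33 in both tissues, and the tissues differed by 2.40 on the log2 scale (SE 0.29; edgeR adjusted p = 2.979e-07). The chemokine Cxcl9 had 8.41 ± 3.26 CPM in floxed BAT and 0.814 ± 0.328 CPM in floxed WV (SD, n = 5 each), and Cxcl10 2.26 ± 0.81 CPM and 0.224 ± 0.213 CPM, with log2 differences of 3.13 and 2.75. Nlrc5 differed by 2.68 and Dhx58 by 2.41.

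Not every group of the response was higher in BAT. Of the 10 antiviral effectors 5 passed (Bst2, Rsad2, Xaf1, Mx2 and Ifi44), while Ifit1, Ifit2, Ifit3, Oasl2 and Mx1 did not, at 0.54, -0.01, 0.12, 0.35 and 0.27. Neither Isg15 nor Usp18 passed. Irgm1 had 12.9 ± 3.08 CPM in floxed BAT and 17.0 ± 3.27 CPM in floxed WV (SD, n = 5 each), a log2 difference of -0.49 (not passing, edgeR adjusted p = 0.06491), and Ifi35 differed by -0.29. The values compare whole tissues, each a mixture of cell types.

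**Figure D5:**
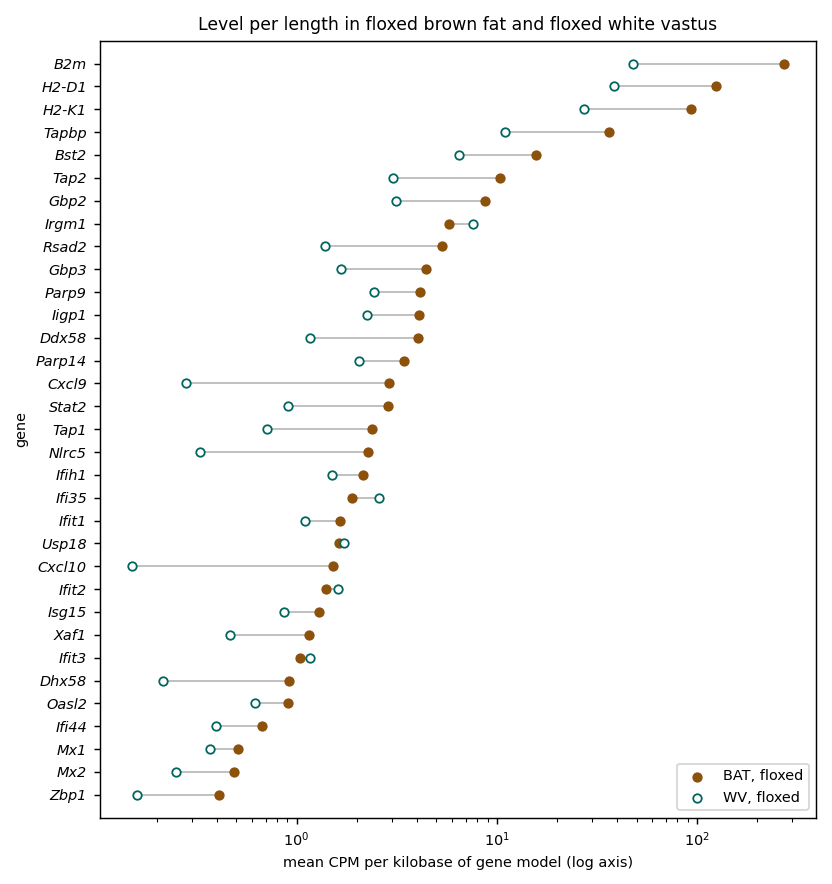
Mean level per kilobase of gene model (log axis) of each gene in floxed BAT (filled) and floxed WV (open), joined by a line and ordered by the BAT level. B2m lies at 272 in BAT and 48.0 in WV, Cxcl9 at 2.90 and 0.280, and Irgm1 is higher in WV, at 5.79 in BAT and 7.63 in WV.

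Some of the same genes differed with the title style of the BAT libraries. In libraries with long tags against those with short numbers, 3 of the 33 genes rose (16.4% of all genes), namely Dhx58 by 0.58, H2-K1 by 0.52 and H2-D1 by 0.45 on the log2 scale, with edgeR adjusted p of 0.02019, 0.02205 and 0.02111. Another 3 fell (14.9% of all genes), with log2 differences of -0.57 for Xaf1, -0.73 for Cxcl10 and -0.30 for Tapbp and edgeR adjusted p of 0.009554, 0.03591 and 0.02198. Xaf1 passed without each library in turn. Dhx58 lost the call without KO_1 or KO_3 (adjusted p of 0.0627 and 0.0606), H2-K1 and H2-D1 lost it without KO_1, KO_3 or KO_5494 (adjusted p from 0.0571 to 0.0636), and Tapbp without FX_5503 (adjusted p = 0.0675). Cxcl10 lost it without FX_1, FX_2, FX_5497, FX_5503, KO_2, KO_5414 or KO_5492 (adjusted p from 0.0516 to 0.113). In BAT, Rmrp and Rpph1 summed to 31.1 to 83.9 CPM in long-tag libraries and to 890 to 3470 CPM in short-number libraries.

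The wider pathway gave no call in edgeR's test. Of 161 further symbols of the interferon and antigen presentation pathways, 143 were in the tables, and 113 were tested in BAT and 101 in WV. They too were chosen with earlier results of these data known, so their shares are descriptive. None passed in either tissue. In BAT 90 of 113 lay above 0 (48.8% of all genes) with a median of 0.16, and 10 were higher (7.5% of all genes) and 4 lower (7.24%) at an unadjusted p under 0.05. In WV 38 of 101 lay above 0 (48.5% of all genes) with a median of -0.07, with 3 higher (3.23% of all genes) and 6 lower (5.68%) at that p. The 19 interferon genes in the tables were close to silent, with at most 15 counts in a library for Ifnk, 5 for Ifng, 3 for Ifna7 and 1 for any other, and none was tested.

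The interferon receptor genes gave no call in edgeR in either tissue. Ifnar1 and Ifnar2, the type I receptor, differed by 0.07 and -0.11 in BAT, and Ifngr1 and Ifngr2, the interferon gamma receptor, by -0.37 (SE 0.19) and 0.27 (SE 0.08; edgeR adjusted p = 0.1956). In WV Ifngr1 had 20.5, 16.1, 24.9, 19.8 and 18.2 CPM in BATI4KO mice and 22.1, 40.7, 33.8, 30.5 and 30.2 CPM in floxed mice, where 4 of the 5 floxed libraries lay above every BATI4KO library. Its log2 difference of -0.66 (SE 0.16) did not pass in edgeR (adjusted p = 0.2855) and did in DESeq2 (adjusted p = 0.0239). Of the signalling genes, Irf9 differed by 0.23 in BAT and -0.09 in WV, Irf1 by 0.25 and -0.15, and Irf7 by 0.29 and 0.14, and none passed in edgeR or DESeq2.

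The pathway genes with the smallest p in BAT were the kinase Tyk2 and the ADP-ribosyltransferase Parp10. Tyk2, which serves the type I receptor, had 21.6, 26.7 and 30.1 CPM as lowest, median and highest of BATI4KO BAT and 20.3, 22.8, 20.5, 18.0 and 16.8 CPM in floxed BAT, a log2 difference of 0.45 (SE 0.09; edgeR adjusted p = 0.1395, DESeq2 adjusted p = 0.00177). Parp10 had 26.4, 31.9 and 40.3 CPM in BATI4KO BAT and 22.1, 20.9, 20.5, 27.5 and 22.4 CPM in floxed BAT, a log2 difference of 0.51 (SE 0.09; edgeR adjusted p = 0.1395, DESeq2 adjusted p = 0.000979). For both genes a single library of each genotype lay inside the range of the other. Ifi27l2b, at 0.956 to 1.48 CPM in BATI4KO BAT and 0.424 to 0.692 CPM in floxed BAT, did not overlap, with a log2 difference of 1.01 (edgeR adjusted p = 0.1404, DESeq2 adjusted p = 0.0228). In the opposite direction, Pdia3, a disulfide isomerase of the peptide loading complex, had 89.1 to 105 CPM in BATI4KO BAT and 106 to 118 CPM in floxed BAT without overlap (log2 difference -0.24; edgeR adjusted p = 0.1935, DESeq2 adjusted p = 0.0346). The chaperone Canx differed by -0.25 and Ifi205 by -0.96.

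The immunoproteasome subunits Psmb8, Psmb9 and Psmb10, which cut peptides for class I display, differed by 0.47, 0.41 and 0.25 in BAT and by -0.31, -0.07 and -0.19 in WV, with none passing. Psmb8 had 41.7 CPM in KO_5494 and 10.8 to 21.6 CPM in the other BATI4KO libraries of BAT, and 6.19 to 19.5 CPM in floxed BAT. All 9 class II antigen presentation genes tested in BAT lay above 0 (48.8% of all genes), with a median of 0.14. Of the 8 tested in WV, 1 did (48.5% of all genes). None of them passed in edgeR in either tissue, and 1 of the 9 was higher in BAT at an unadjusted p under 0.05 (7.5% of all genes). In WV the smallest p among genes above 0 belonged to Socs3 (0.82), Irf2 (0.34) and Dtx3l (0.24), and among those below 0 to Ifngr1, Ifi205 (-1.29) and Ifitm2 (-0.61), which had 5.20 to 7.98 CPM in BATI4KO WV and 8.09 to 15.4 CPM in floxed WV without overlap (edgeR adjusted p = 0.4062).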

How the data were processed

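Per the labels' protocols, column-purified RNA was depleted of ribosomal RNA, primed with random hexamers and made into libraries by tagmentation. For each tissue the authors deposited a table of raw counts of reads by gene model, with its symbol and length, per the file headers. The submitters' processing notes name build mm9, the counter featureCounts 1.4.6, the aligner TopHat2 2.0.14 and the tools SAMtools 0.1.19, Picard 2.2.4, edgeR and bcl2fastq 2.17.1.14, and how strand was handled is not given in the sources used here. Exons of 9 of the 33 genes overlap a gene on the opposite strand in a GRCm38 annotation. The sources used here mention no molecular identifiers, so a count is a read and not a molecule.

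Both tables held the same 28541 models. Genes were matched by symbol to the model with the highest summed count, and the members and the further gene lists were chosen with earlier results of these data known. Groups came from genotype and tissue in the labels. Counts were filtered by edgeR's expression filter, TMM-scaled and tested by the quasi-likelihood F test of edgeR 4.0.16 in R 4.3.3, with p-values adjusted over all genes tested (Benjamini-Hochberg, threshold 0.05). The BAT fit of 16051 genes had title style as covariate, and the WV fit of 14529 genes had none. A fit over 21 libraries and 16632 genes gave the interaction and, at floxed genotype and long-tag style, the difference between tissues. Standard errors are the log2 difference divided by the root of F. Deviations use log2 CPM with a prior count of 2. The scripts were tested on simulated counts.

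All genes of the list were given values, and those in full were the 5 with the smallest p per tissue, the highest and lowest difference, and those without overlap between genotypes. For Ifit2, Gbp2, Bst2 and Cxcl9 in WV, the value of every library is not given. Of the further pathway genes, the named ones were receptors, Irf1, Irf7, Irf9, the immunoproteasome and the 3 with the smallest p per direction and tissue; Tapbp, H2-K1, Ifih1, the Gbp genes and the like were added for their roles, and a few results are not reported here. Alternatives were RLE size factors, library totals, no filter, a filter of 1 CPM, DESeq2 1.42.0, limma 3.58.1 voom, no covariate, a block of title numbers or tags, a muscle score as covariate, either title style alone and each library left out. The smallest chi-square value per gene between replicate libraries was 30.4, and all were kept as separate samples. This value cannot tell whether the libraries came from separate animals.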

Additional observations from a re-analysis of the deposited data

Results flagged for a closer look

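In a group of 5 or 6 libraries, a level was singled out where its gap to the nearest library was a large share of the range (above Dixon's critical value). Of 132 groups tested 11 met this. By chance about 1 in 20 would if values were normal and groups independent, but the genes share the same libraries.

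WV FX_5415 met it for 6 genes. Ifit2 had 6.58 CPM there and a floxed median of 4.27 CPM, Ifit3 had 2.72 CPM and a median of 1.47 CPM, and Gbp2 had 10.9 CPM and a median of 4.30 CPM. Gbp3 had 6.08 CPM there and a median of 2.80 CPM, Iigp1 had 15.1 CPM and a median of 5.20 CPM, and B2m had 54.9 CPM and a median of 24.6 CPM. WV KO_5496 met it for Dhx58, at 0.994 CPM with a BATI4KO median of 0.414 CPM, and for Usp18, at 3.53 CPM with a median of 1.79 CPM.

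In BAT, KO_5494 met it for Parp14, at 64.5 CPM with a BATI4KO median of 51.5 CPM. FX_3 met it for Isg15, at 2.62 CPM with a floxed median of 1.08 CPM, and for Usp18, at 5.04 CPM with a median of 3.68 CPM.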

How the results depend on the processing

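In BAT no alternative but DESeq2 gave a call among the 33 genes. DESeq2 called 4 of them. The median log2 difference was 0.33 with RLE, 0.338 with no filter, 0.356 with a 1 CPM filter, 0.323 with voom and 0.322 with no covariate. With library totals it was 0.475, where the median of all genes was 0.129. With each library left out it ran from 0.186 to 0.426, with 0 calls and 29 to 32 genes above 0. In WV, with a library left out, the median ran from -0.0733 to 0.107 with 10 to 20 genes above 0, and the interaction from 0.145 to 0.439 with 28 to 33 above 0, with no member called in either. In WV 5 genes lay above 0 with library totals (all-gene median -0.116) and 8 of 26 with a 1 CPM filter. Between tissues the median was 1.94 with library totals (all genes 0.791). There 28 genes passed, all higher in BAT, while 72.9% of all genes were called in either direction. With RLE 20 passed, 19 higher and 1 lower in BAT, while 65.6% of all genes were called. RLE lost Zbp1, Mx2 and Ifi44, and Irgm1 was the gene called lower in BAT. For title style, 3 (without KO_3) to 7 genes passed with a library left out.

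Whether the title numbers pair the libraries is not known. Same-number correlations of deviations were 0.134, -0.121 and 0.0672. They lay within the range of different numbers, -0.234 to 0.17, so they cannot decide it. With a replicate block of the numbers the BAT median was 0.344, 32 genes lay above 0 and 2 genes in all were called. With a block of the shared tags the interaction median was 0.336 with 28 above 0. The tissue median was then 1.52 with 22 passing, while 62.6% of all genes were called. Summing models per symbol was not run, since each symbol had a single model.

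Over all genes, the 7 calls in BAT became 372 with DESeq2, 3 with a 1 CPM filter, 2 with the block, 1 with no covariate or the muscle score, 6 with long tags and 0 with short numbers alone, and 0 without KO_2 and KO_5494. The 1 call in WV became 111 with DESeq2, 5 with no filter and 0 with library totals or a 1 CPM filter. The 3 interaction calls became 55 with DESeq2 and, with a library left out, 30 without BAT KO_2 and 5 without BAT KO_1. With a library left out, the BAT count was 16 without FX_3, 4 without KO_3, 3 without KO_5494, 2 without FX_2 or FX_5503 and 1 without FX_1, FX_5497, KO_1 or KO_5492. The WV count was then 10 without FX_5413, 11 without KO_5495 and 0 without FX_5415, FX_5497, FX_5514, KO_5492, KO_5493 or KO_5494.

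Genes that changed sign had no call in either setting, and the cause was not tested. In BAT, with library totals, Bst2 was 0.113 and Ifnar2 0.0199. With voom, no covariate and the block, Bst2 was 0.0109, 0.0303 and 0.0291, and with no covariate Irf2 was -0.0137. With long tags, Bst2 was 0.321, B2m 0.0656 and Ifitm2 0.0914. With short numbers, Dhx58 was -0.0533, Ifi35 -0.0897, Ifit1 -0.071, Ifit2 -0.227 and Socs3 -0.234. With the muscle score, Ifi35 was -0.0754, Ifnar2 0.0233 and Socs3 -0.113. Without KO_2 and KO_5494, Zbp1 was -0.0738, Ifit1 -0.241, Ifit2 -0.0405, Ifit3 -0.227, Iigp1 -0.0346, Cxcl9 -0.114, H2-K1 -0.0679, H2-D1 -0.112 and Irf2 -0.0269.

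In WV, with library totals, Ifih1 was -0.0567, Nlrc5 -0.0642, Parp14 -0.0454, Oasl2 -0.0687, Ifi44 -0.0455, Gbp3 -0.137, Irgm1 -0.0281, Iigp1 -0.0956, Tapbp -0.121, Irf7 -0.0169, Parp10 -0.0813, Tyk2 -0.0285 and Canx -0.088. With a 1 CPM filter, Gbp3 was -0.00492 and Tapbp -0.00164, and with voom, Mx1 was 0.0143 and Tapbp -0.00047. Without FX_5497, FX_5503 and FX_5514 of WV, an alternative chosen after seeing the data, the WV median was -0.338 with 7 of 33 genes above 0. No gene was called in all, in WV or for the interaction. There Stat2 was -0.0166, Nlrc5 -0.137, Parp14 -0.0953, Ifi35 0.0858, Usp18 0.0466, Oasl2 -0.104, Mx1 0.238, Gbp3 -0.426, Irgm1 -0.162, Iigp1 -0.448, Cxcl9 -0.149, Tap2 -0.0582, Tapbp -0.105, Ifngr2 0.112, Parp10 -0.122 and Canx -0.0157.

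With each library left out, the log2 difference in BAT ran for Bst2 from -0.202 to 0.169, H2-D1 from -0.0617 to 0.0836, H2-K1 from -0.0189 to 0.185, Ifit1 from -0.0982 to 0.382, Ifit2 from -0.0706 to 0.203, Irf2 from -0.0283 to 0.122 and Socs3 from -0.204 to 0.212. In WV it ran for B2m from -0.311 to 0.166, Canx from -0.0251 to 0.0581, Ddx58 from -0.129 to 0.138, Dhx58 from -0.103 to 0.398, Gbp3 from -0.156 to 0.32, Ifi35 from -0.359 to 0.0285, Ifi44 from -0.0733 to 0.299, Ifih1 from -0.011 to 0.236, Ifit1 from -0.541 to 0.0338, Ifnar2 from -0.277 to 0.0479, Iigp1 from -0.16 to 0.544 and Irf1 from -0.261 to 0.124. It ran for Irf9 from -0.179 to 0.118, Isg15 from -0.515 to 0.038, Mx1 from -0.165 to 0.0904, Nlrc5 from -0.0529 to 0.282, Oasl2 from -0.0182 to 0.315, Parp10 from -0.144 to 0.111, Parp9 from -0.13 to 0.043, Pdia3 from -0.11 to 0.00529, Psmb8 from -0.577 to 0.0486, Psmb9 from -0.312 to 0.187, Tapbp from -0.0509 to 0.0468, Usp18 from -0.352 to 0.00207 and Xaf1 from -0.202 to 0.142.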
